A study of Mus musculus with 24 samples.

Results

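The epithelial keratin genes Krt5, Krt7, Krt8, Krt14, Krt15, Krt17, Krt18, Krt19 and Krt80 were described in cultured mouse organ of Corti (OC) explants, the sensory epithelium of the cochlea with the tissue around it. The members were the rows of the deposited count table whose Entrez ID maps to these 9 symbols, 9 of the 24454 genes of the table. They had been chosen from measured values, with Krt80 known to be lower under pioglitazone alone than in control OCs at 6 h, so that comparison is a description here and supports nothing. A filter on low counts left 16317 genes for testing, among them 7 of the 9 members. Krt5, with 37 counts in all 24 libraries together, and Krt14, with 63, did not pass it. Of the most abundant members, Krt8 and Krt19 fell with pioglitazone in the presence of gentamicin at 6 h, calls that were lost once a trend with GC content was removed, Krt8 and Krt18 were 2.83-fold and 2.58-fold lower at 24 h than at 6 h, and no member passed the test for gentamicin at either time.

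Keratins are the intermediate filament proteins of epithelial cells. An acidic type I keratin and a basic type II keratin pair into a filament, which anchors at desmosomes between cells and at hemidesmosomes on the basement membrane and gives the cell mechanical strength. Krt8 (type II) and Krt18 (type I) form the filaments of simple epithelia, where Krt7 (type II) and Krt19 (type I, with hardly any tail domain) are also found. Krt5 (type II), Krt14 and Krt15 (both type I) mark the basal layer of stratified epithelia such as epidermis, Krt17 (type I) is found in skin appendages and is induced by injury, and Krt80 (type II) occurs in differentiating epithelial cells. In the cochlea, simple-epithelial keratins are known from the supporting cells that surround the hair cells.

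All OCs came from C57BL/6N mouse pups at 5 days of age, were cultured before treatment, and were then left without drug (CTRL) or given 50 μM of the aminoglycoside antibiotic gentamicin (GM), 10 μM of the PPAR-γ agonist pioglitazone (PIO), or both (PIO+GM), for 6 or 24 h. Each of the 8 groups had 3 libraries, 24 in all, and each library held the pooled RNA of 6 explants. An explant mixes epithelium with other tissue, so fewer cells of a type and less RNA per cell cannot be told apart. Nothing in the labels says that the libraries of a group came from separate litters or cultures, so the p-values measure the spread between these libraries, which may in part be technical.

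Library totals ran from 7211357 to 15548856 counts with a median of 12538495, and 3 counts, taken as the detection floor, stood for 0.193 to 0.405 units of CPM (counts scaled to the library size after TMM, the correction for RNA composition in edgeR). The third PIO+GM library at 6 h was the shallowest. The first PIO+GM library at 6 h stood apart from the other libraries of its group: the comparison with GM called 216 genes with it and 4053 without it. The markers of the labelled tissue were present. The summed CPM of the 10 supporting cell markers was 2931 to 7905, of the 10 hair cell markers 417 to 978, and of the 8 general epithelium markers, which include Epcam and Cdh1, 723 to 1354. Markers of other cells were also present, with summed CPM of 2410 to 7061 for mesenchyme (8 genes), 198 to 2635 for Schwann cells (6 genes), 802 to 1890 for stria marginal cells (6 genes), 101 to 327 for neurons (6 genes), 114 to 406 for endothelium (6 genes), 42.5 to 176 for macrophages (7 genes), 6.30 to 214 for melanocytes (5 genes) and 2.15 to 13.5 for keratinocytes (8 genes). No marker of these lists was at 0 in all 24 libraries.

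Krt8 and Krt18 are neighbours on mouse chromosome 15. In GRCm38, Krt8 (gene ENSMUSG00000049382.10) spans chr15:101996698-102004482 on the minus strand and Krt18 (ENSMUSG00000023043.7) spans chr15:102028180-102032027 on the plus strand, so their starts face each other across 23697 bases. Their levels were the most alike of any keratin pair, and the sequence before each start is shown for that reason. RefSeq (GRCm38.p6) gave promoter windows for 5 of the 9 members (Krt5, Krt7, Krt8, Krt14 and Krt18). Printed here, 5′ to 3′ on the strand of the gene, are the parts of the 250 bases before the RefSeq start that lie outside annotated exons, chr15:102004483-102004592 for Krt8 and chr15:102027966-102028179 for Krt18. Capitals mark AGGTCA, the letters that a nuclear receptor such as PPAR-γ reads in pairs.
Krt8: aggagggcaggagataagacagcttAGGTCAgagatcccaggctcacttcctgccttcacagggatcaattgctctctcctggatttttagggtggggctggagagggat
Krt18: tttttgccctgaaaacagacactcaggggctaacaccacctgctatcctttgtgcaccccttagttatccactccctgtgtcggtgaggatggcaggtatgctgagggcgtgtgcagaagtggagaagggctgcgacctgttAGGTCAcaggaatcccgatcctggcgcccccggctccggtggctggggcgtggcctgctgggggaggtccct
This AGGTCA ended 219 bases before the RefSeq start of Krt8, which is base 102004342, and 102 bases before that of Krt18, which is base 102028216. Both RefSeq starts lie inside the GENCODE spans given here. The letters were searched on both strands. It was found in 14.0% of all 32851 promoter windows of 250 bases, so its presence in both is a description only. The paired element DR1, 2 copies of AGGTCA with 1 base between them, was in 0.0335% of all windows and in none of the 5 keratin windows. Neither AP-1 (TGANTCA, 6.75% of all windows) nor TATAAA (12.4%) was in any of the 5, and the SP1 box GGGCGG (32.7% of all windows) occurred 4 times before Krt7 and in no other of these. These letters do not overlap another motif of the search, except that DR1 holds AGGTCA.

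Among the keratins, the level per kilobase of transcript (RPKM) was highest for Krt18, with a median over 24 libraries of 74.4 and a range of 35.2 to 192. Krt8 followed at 53.1 (25.1 to 175), Krt19 at 21.0 (15.3 to 41.8) and Krt7 at 5.78 (2.59 to 22.6). In this order, each of these ranges overlapped that of its neighbour. Krt80 at 0.60 RPKM (0.152 to 2.29) lay below every library of Krt7. Krt17 at 0.473 (0.126 to 1.25) and Krt15 at 0.325 (0.0385 to 1.35) overlapped Krt80, and Krt14 at 0.0965 (0 to 0.628) and Krt5 at 0.0348 (0 to 0.308) came last. The OCs thus carried the simple-epithelial set at high level and the basal-epidermal pair Krt5 and Krt14 at or near the detection floor.

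**Figure D1:**
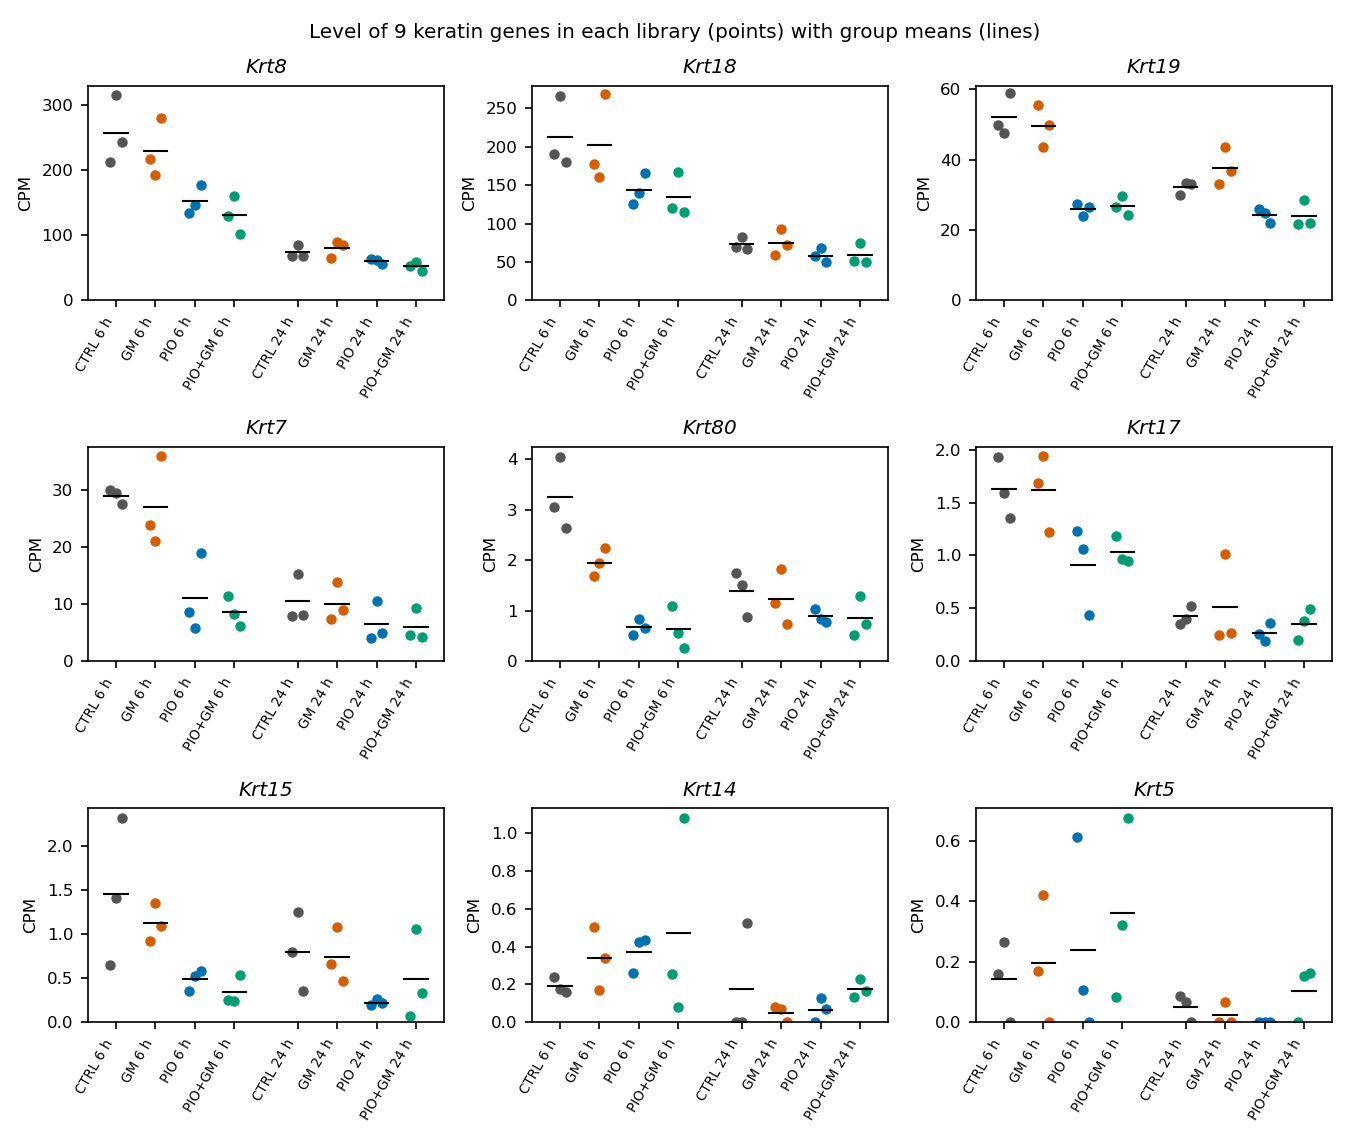
CPM (linear axis, a separate scale for each gene) of the 9 keratin genes in the 24 libraries. Points are libraries, 3 per group, colored by treatment, and lines are group means. Krt8, Krt18, Krt19 and Krt7 sit lower under pioglitazone (PIO, PIO+GM) than without it at 6 h, and Krt5 and Krt14 stay at 0 to 8 counts.

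At 6 h, Krt8 stood at 211, 315 and 243 CPM in the 3 CTRL libraries and at 217, 192 and 279 CPM in the GM libraries. With pioglitazone it was at 135, 147 and 177 CPM (PIO) and 129, 161 and 102 CPM (PIO+GM). All 6 libraries with pioglitazone lay below all 6 without it. At 24 h the levels were 67.9, 84.2 and 68.6 CPM in CTRL, 65.0, 90.1 and 84.2 in GM, 62.8, 61.9 and 54.9 in PIO and 52.4, 58.3 and 45.4 in PIO+GM. Every 24 h library lay below every 6 h library, and the pioglitazone groups again lay below the group each is compared with. Of the 76-base windows of the longest Krt8 transcript, 23.2% occur in another annotated gene (Gm36026 or Krt8-ps), so part of its reads may have been assigned elsewhere or dropped, and its level is uncertain to that extent.

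Krt18, the partner of Krt8, stood at 190.3, 266 and 181 CPM in CTRL and 178, 160.0 and 268 in GM at 6 h. It was at 125, 139 and 165 CPM in PIO and 120.3, 167 and 116 in PIO+GM. The PIO libraries lay below the CTRL libraries, whereas the second PIO+GM library, at 167 CPM, lay within the range of GM. At 24 h its levels were 70.0, 82.6 and 67.0 CPM in CTRL, 58.9, 92.7 and 71.5 in GM, 57.3, 68.1 and 49.3 in PIO and 51.6, 75.1 and 49.4 in PIO+GM, with overlap in each comparison of treatments. None of the windows of Krt18 occurs in another gene.

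Krt19 varied little between libraries of a group. At 6 h it stood at 49.8, 47.6 and 59.1 CPM in CTRL, 55.6, 43.6 and 49.8 in GM, 27.5, 24.0 and 26.6 in PIO and 26.4, 29.5 and 24.3 in PIO+GM. At 24 h it stood at 30.0, 33.2 and 33.1 CPM in CTRL, 33.0, 43.5 and 36.8 in GM, 26.1, 24.8 and 22.0 in PIO and 21.6, 28.6 and 22.0 in PIO+GM. At each time, all libraries with pioglitazone lay below all libraries without it. The group standard deviations were between 1.78 and 6.09 CPM (n = 3 each).

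Krt7 stood at 29.9, 29.5 and 27.6 CPM in CTRL and 23.9, 21.0 and 35.9 in GM at 6 h, against 8.60, 5.82 and 19.0 in PIO and 11.4, 8.35 and 6.21 in PIO+GM. The third PIO library was the highest of the 6 libraries with pioglitazone and still lay below all 6 without it. At 24 h the levels were 8.00, 15.3 and 8.12 CPM in CTRL, 7.36, 13.9 and 9.01 in GM, 4.11, 10.6 and 4.86 in PIO and 4.63, 9.32 and 4.17 in PIO+GM. The second library was the highest in every 24 h group, and treatments overlapped.

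Krt80 was measured on few reads. Its counts at 6 h were 38, 46 and 33 in CTRL, 20, 23 and 33 in GM, 6, 8 and 9 in PIO and 13, 7 and 2 in PIO+GM. In CPM these were 3.06, 4.06 and 2.64, 1.68, 1.94 and 2.25, 0.526, 0.847 and 0.651 and 1.10, 0.562 and 0.270, in the same order. All 6 libraries with pioglitazone lay below all 6 without it, and the 3 GM libraries lay below the 3 CTRL libraries. At 24 h, Krt80 had 20, 23 and 10 counts in CTRL, 14, 27 and 11 in GM, 16, 13 and 11 in PIO and 8, 17 and 9 in PIO+GM, and the treatments overlapped in CPM.

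Krt17 and Krt15 were lower still. Krt17 counts at 6 h were 24, 18 and 17 in CTRL, 20, 23 and 18 in GM, 14, 10 and 6 in PIO and 14, 12 and 7 in PIO+GM, and at 24 h they were 3 to 6 except for 15 in the second GM library. Krt15 counts at 6 h were 8, 16 and 29 in CTRL, 11, 16 and 16 in GM, 4, 5 and 8 in PIO and 3, 3 and 4 in PIO+GM. At 24 h Krt15 had 9, 19 and 4 counts in CTRL, 8, 16 and 7 in GM, 3, 4 and 3 in PIO and 1, 14 and 4 in PIO+GM. Krt15 reached the filter level of 0.798 CPM in 5 of the 6 libraries without pioglitazone at 6 h, in 0 of the 6 with it and in 3 libraries at 24 h. Krt80 did so in 6, 2 and 8 libraries and Krt17 in 6, 5 and 1. Krt15 thus passed the filter mainly through the groups in which it was high, and Krt17 through the 6 h groups, so counts over the 7 tested members are not counts over all members, and they are given as description.

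Krt14 had 0 to 8 counts per library and was at 0 in 4 libraries. Krt5 had 0 to 7 counts and was at 0 in 10 libraries, among them all 3 PIO libraries at 24 h. Krt14 counts at 6 h were 3, 2 and 2 in CTRL, 6, 2 and 5 in GM, 3, 4 and 6 in PIO and 3, 1 and 8 in PIO+GM, and at 24 h 0, 0 and 6 in CTRL, 1, 1 and 0 in GM, 0, 2 and 1 in PIO and 2, 3 and 2 in PIO+GM. In CPM the Krt14 libraries of PIO lay above those of CTRL at 6 h (0.263 to 0.434 against 0.160 to 0.241), and those of PIO+GM above those of GM at 24 h (0.132 to 0.227 against 0 to 0.0827), on these few counts. Of all tested genes, 8.68% lay higher without overlap in the former comparison and 9.84% in the latter, so nothing is read from this. Neither Krt14 nor Krt5 was tested in the analysis reported. With the filter left out, edgeR called both lower at 24 h than at 6 h averaged over treatments (adjusted p = 0.0111 for Krt5 and 0.0197 for Krt14) and neither in a comparison of treatments. Some of their 76-base windows (5.79% for Krt14, 7.59% for Krt5) also occur in other keratin genes or in predicted genes. The keratinocyte markers, of which 5 of 8 were tested, summed to 3.91 to 13.5 CPM at 6 h and 2.15 to 7.42 CPM at 24 h.

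The comparison of PIO+GM with GM asked what pioglitazone did in the presence of gentamicin. At 6 h, 2 of the 7 tested keratins were lower and none was higher at an adjusted p under 0.05 (edgeR quasi-likelihood test with Benjamini-Hochberg adjustment over all tested genes), where 1.32% of all tested genes were called and 0.723% were called lower. Krt19 fell by 0.89 on the log2 scale (SE 0.14, adjusted p = 0.00721), which is 1.85-fold lower. Krt8 fell by 0.81 (SE 0.19, adjusted p = 0.0388), which is 1.76-fold lower. For Krt7 the log2 fold change was -1.63 (SE 0.43, adjusted p = 0.0618), for Krt80 -1.53 (SE 0.43, adjusted p = 0.0661), for Krt15 -1.76 (SE 0.68, adjusted p = 0.129), for Krt18 -0.59 (SE 0.22, adjusted p = 0.126) and for Krt17 -0.63 (SE 0.43, adjusted p = 0.359). The median of the 7 was -0.89, against -0.02 over all tested genes. For 6 of the 7, all but Krt18, the 3 PIO+GM libraries lay below the 3 GM libraries, which held for 11.4% of all tested genes.

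Both calls were sensitive to the GC content of the transcripts. Across all genes with a GC value (94.3% of those tested), the log2 fold change of this comparison ran against GC content with a Spearman rho of -0.62, and the longest transcripts of the 9 keratins hold 52.3% to 58.9% GC against a median of 49.8%. With that trend removed, the log2 fold change was -0.44 for Krt19 (adjusted p = 0.195) and -0.38 for Krt8 (adjusted p = 0.367). Krt7 (-1.49) and Krt80 (-1.36) moved less, and their longest transcripts hold the least GC of the 9 keratins (52.3% and 53.0%). The part of the GC trend in the result was not tested. The Krt19 call was lost without the first GM library (adjusted p = 0.0530) or the third PIO+GM library (0.0644), and the Krt8 call without any 1 of the 6 libraries but the first PIO+GM library (0.0613 to 0.185). Without the first PIO+GM library 4 keratins were called, but so were 4053 genes of the table, against 216 with it. The medians of the cell type marker lists ran from -0.41 (Schwann cell) and -0.37 (hair cell) to -0.11 (general epithelium), with 1 of 8 lower for general epithelium, 1 of 8 lower for mesenchyme (median -0.28) and 0 called in the other lists, and their part in the result was not tested. Scaled to the general epithelium markers, an analysis added after seeing the data, Krt19 was at -0.88 (adjusted p = 0.0565) and Krt8 at -0.82 (adjusted p = 0.110), and 0 genes of the table were called.

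**Figure D2:**
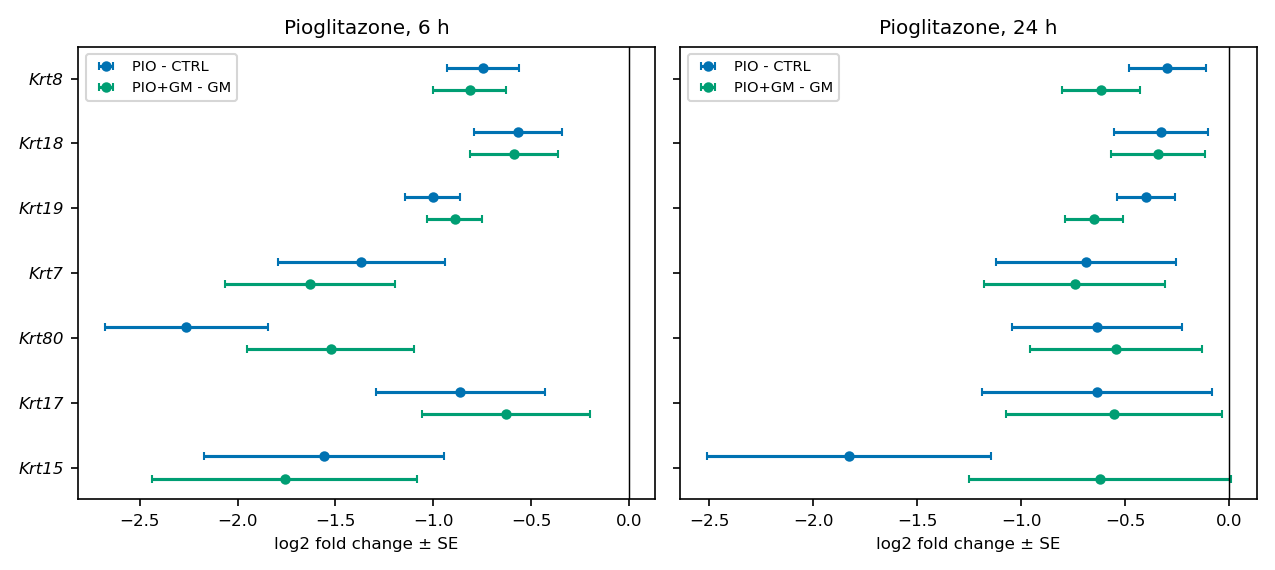
Log2 fold change (x axis) of the 7 tested keratin genes for PIO against CTRL and PIO+GM against GM, at 6 h (left) and 24 h (right). Points are edgeR estimates from 3 libraries per group and bars are 1 standard error. All 28 estimates lie below 0, between -0.30 and -2.26.

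For PIO against CTRL at 6 h, the comparison in which Krt80 had been noticed, the values are a description and support nothing. The log2 fold change was -2.26 (SE 0.42) for Krt80, -1.56 (SE 0.61) for Krt15, -1.37 (SE 0.43) for Krt7, -1.0 (SE 0.14) for Krt19, -0.86 (SE 0.43) for Krt17, -0.75 (SE 0.18) for Krt8 and -0.57 (SE 0.22) for Krt18. In all 7 tested members the PIO libraries lay below the CTRL libraries, which held for 6.73% of all tested genes, while the untested Krt14 lay the other way. The share of all tested genes under the adjusted threshold was 0.337%, with 2 of the 7 among them, and nothing is read from these counts. Averaged over the comparisons with and without gentamicin at 6 h, a contrast that includes the one just described, the values ran from -1.89 (SE 0.30) for Krt80, -1.66 (SE 0.46) for Krt15 and -1.50 (SE 0.30) for Krt7 to -0.95 (SE 0.10) for Krt19, -0.78 (SE 0.13) for Krt8, -0.74 (SE 0.30) for Krt17 and -0.58 (SE 0.16) for Krt18. Under the threshold were 6 of the 7 and 16.1% of all tested genes, with 6.83% lower. Nothing is read from this count either, since the contrast holds the comparison in which Krt80 was noticed and Krt15 passed the filter at 6 h through the libraries without pioglitazone alone.

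The median averaged log2 fold change at 6 h was -0.95 over the 7 keratins. Over the 8 general epithelium markers it was -0.01, with 1 of 8 lower, and their summed CPM was 1023 to 1354 with pioglitazone and 1088 to 1283 without it. For the 10 supporting cell markers the median was -0.13 with 0 called, for the 10 hair cell markers -0.21 with 3 lower, and for the 8 mesenchyme markers -0.29 with 2 lower. The Schwann cell markers had a median of -0.62, the neuron markers -0.44, the melanocyte markers -0.34, the keratinocyte markers -0.33, the macrophage markers -0.22 and the stria marginal cell markers -0.05, each with 0 called, and the endothelium markers -0.32 with 1 lower. Their part in the keratin values was not tested. Scaled to equal summed counts of the epithelium markers, the averaged values were almost the same, such as -0.78 for Krt8 and -0.94 for Krt19. With the GC trend removed (rho -0.56 in this contrast), Krt18 was at -0.28, Krt17 at -0.39, Krt8 at -0.47 and Krt19 at -0.61, while Krt7 at -1.40, Krt15 at -1.44 and Krt80 at -1.76 changed little.

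**Figure D3:**
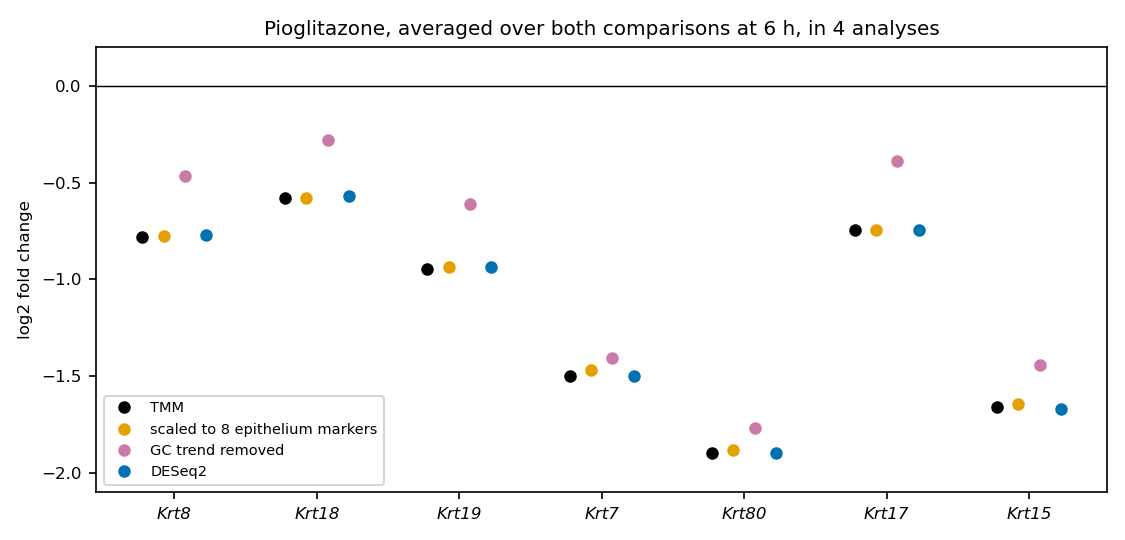
Log2 fold change (y axis) of the 7 tested keratin genes for pioglitazone at 6 h, averaged over the comparisons with and without gentamicin, in 4 analyses. TMM is the analysis reported, and the others scale libraries to the general epithelium markers, remove the trend with GC content, or use DESeq2. Removing the GC trend moves Krt18 (56.4% GC) from -0.58 to -0.28 and Krt80 (53.0% GC) from -1.89 to -1.76.

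At 24 h the pioglitazone estimates lay nearer to 0 for most members. In PIO+GM against GM no keratin was called, where 0.11% of all tested genes were, and 2 of 7 had an unadjusted p under 0.05. DESeq2 called 1, Krt19. The log2 fold change was -0.65 for Krt19 (SE 0.14, adjusted p = 0.0769) and -0.62 for Krt8 (SE 0.19, adjusted p = 0.322). For these 2 the PIO+GM libraries lay below the GM libraries, which held for 8.57% of all tested genes. In PIO against CTRL at 24 h no keratin was called by edgeR or DESeq2, where edgeR called 0.153% of all tested genes. Krt15 was at -1.83 (SE 0.68) and Krt19 at -0.40 (SE 0.14, adjusted p = 0.30), the only 2 with an unadjusted p under 0.05. Krt8, Krt15 and Krt19 did not overlap between PIO and CTRL, which held for 10.6% of all tested genes in this direction.

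Averaged over both comparisons at 24 h, edgeR called 1 keratin, Krt19, with a log2 fold change of -0.53 (SE 0.10, adjusted p = 0.00645), where 2.79% of all tested genes were called and 2% were called lower. It is 1.44-fold lower, and all 6 libraries with pioglitazone lay below all 6 without it. The call held with the GC trend removed (-0.48, adjusted p = 0.0185) and was lost when libraries were scaled to the general epithelium markers (-0.39, adjusted p = 0.0620), a scaling that moves the median of all genes by 0.13 here. Krt8 was at -0.46 (SE 0.13, adjusted p = 0.0646), a gene that DESeq2 called besides Krt19 (adjusted p = 0.0265), and the other 5 lay between -0.34 (Krt18) and -1.23 (Krt15). The mesenchyme markers had a median of -0.52 with 3 of 8 lower, and the general epithelium markers -0.14 with 0 called. The medians were also below 0 for the endothelium markers (-0.38 with 0 called), the melanocyte markers (-0.37 with 1 of 4 lower) and the keratinocyte markers (-0.36 with 1 of 5 lower). Their part in the result was not tested.

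The difference of the pioglitazone response between the times, tested as an interaction, called no keratin and 0.00613% of all tested genes. By DESeq2 it called no keratin either. Since it includes PIO against CTRL at 6 h, the values are a description: the largest was 1.30 for Krt80 (SE 0.42), meaning a response less negative at 24 h than at 6 h, and all 7 were above 0. The interaction of pioglitazone with gentamicin called 0% of all tested genes at 6 h and 0% at 24 h, none of them keratins, with 0 keratins at an unadjusted p under 0.05 and 0 by DESeq2 at each time. The widest estimates were 0.74 for Krt80 at 6 h (95% interval -0.53 to 2.00) and 1.21 for Krt15 at 24 h (-0.74 to 3.16). Both rest on single libraries. The Krt80 value was 0.12 without the first PIO+GM library at 6 h, the one that stood apart, and the Krt15 value was -0.10 without the second PIO+GM library at 24 h, which held 14 of the 19 Krt15 counts of its group.

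Gentamicin alone was compared with CTRL to ask whether the ototoxic drug moved the keratins. At 6 h, 0% of all tested genes were called, and of the 7 keratins 0 were called by edgeR or DESeq2 and 0 had an unadjusted p under 0.05. The lowest p was that of Krt80, with a log2 fold change of -0.72 (SE 0.37, 95% interval -1.50 to 0.05, adjusted p = 1.00). Krt80 was also the 1 member whose GM libraries lay below the CTRL libraries, which held for 2.09% of all tested genes. The intervals were -0.54 to 0.22 for Krt8, -0.54 to 0.39 for Krt18 and -0.36 to 0.22 for Krt19. The CTRL libraries are those of PIO against CTRL.

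At 24 h, GM against CTRL called 0.0123% of all tested genes and 0 keratins, with 0 by DESeq2 and 0 at an unadjusted p under 0.05. Krt19 had the lowest p, at 0.23 (SE 0.14, 95% interval -0.05 to 0.52, adjusted p = 1.00). No keratin lay lower without overlap, against 3.06% of all tested genes. Averaged over the presence of pioglitazone, gentamicin called 0.0123% of all tested genes at 6 h and 0.313% at 24 h, and 0 keratins at either time by edgeR, by DESeq2 or at an unadjusted p under 0.05. The lowest p belonged to Krt8 at 6 h, with -0.19 (95% interval -0.47 to 0.08), and to Krt19 at 24 h, with 0.11 (-0.09 to 0.32).

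For Krt8, Krt18 and Krt17 the estimate for culture time was further from 0 than that of any drug comparison. Between 6 and 24 h, averaged over treatments, 5 of the 7 tested keratins fell and none rose, where 62.6% of all tested genes were called and 30.7% were called lower. Krt8 was 2.83-fold lower at 24 h (log2 fold change -1.50, SE 0.09, adjusted p = 2.09e-10) and Krt18 2.58-fold lower (-1.37, SE 0.11, adjusted p = 7.03e-09). Krt7 was 2.06-fold lower (-1.04, SE 0.22, adjusted p = 3.29e-04). Krt19 was only 1.26-fold lower (-0.34, SE 0.07, adjusted p = 3.22e-04). Krt15 (-0.49, SE 0.33, adjusted p = 0.202) and Krt80 (-0.29, SE 0.21, adjusted p = 0.243) did not pass the test. Krt17 is the other of the 5 (-1.69, SE 0.24), but it passed the filter through the 6 h libraries, in which it is high, so its value is a description only.

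The direction of the smaller changes with time depended on the scaling. The summed CPM of the general epithelium markers was 1023 to 1354 at 6 h and 723 to 941 at 24 h, with 3 of 8 lower and 1 higher. Scaled to those markers, which raises the median of all genes by 0.55, Krt8 (-0.97) and Krt18 (-0.83) remained lower past the threshold, Krt7 lost its call (-0.51, adjusted p = 0.0602) and Krt19 was higher (0.20, adjusted p = 0.0280), below the shift of the median gene. The supporting cell markers had a median log2 fold change of 0.51 with time with 7 of 10 higher, the hair cell markers 0.36 with 5 higher and 1 lower, and the Schwann cell markers -1.64 with 5 of 6 lower. For the keratinocyte markers the median was -1.05 with 3 of 5 tested lower and 1 higher. Their part in the fall of the keratins was not tested.

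By treatment, the mean Krt8 level at 6 h was 3.49 times that at 24 h in CTRL, 2.88 times in GM, 2.55 times in PIO and 2.51 times in PIO+GM, with no overlap of the times in any of these. For Krt18 the ratios were 2.90, 2.72, 2.46 and 2.29 in the same order, and for Krt17 3.83, 3.17, 3.36 and 2.90, again with no overlap. Krt17 passed the filter through the 6 h libraries, in which it is high. How many of all tested genes separate the times in this way was not counted, while 62.6% were called for time. The separations given here are thus a description only. For Krt19 the ratios were 1.63 and 1.32 without pioglitazone and 1.07 and 1.11 with it, where the times overlapped. For Krt80 the ratio was 2.35 in CTRL, where the times did not overlap, 1.58 in GM, 0.761 in PIO and 0.757 in PIO+GM, where they did. The 6 h levels in the CTRL and PIO ratios are those of the comparison in which Krt80 was noticed. The difference between these ratios thus supports nothing.

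**Figure D4:**
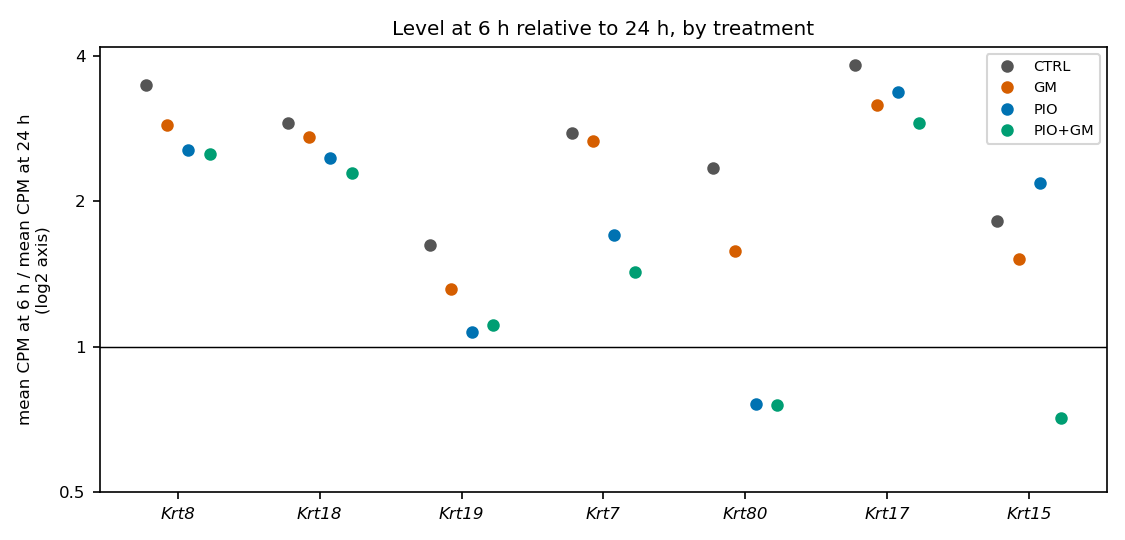
Mean CPM at 6 h divided by mean CPM at 24 h (y axis, log2 scale) for the 7 tested keratin genes in the 4 treatments, each ratio from 3 libraries per time. Points above 1 were higher at 6 h. Krt8, Krt18 and Krt17 lie above 2 in every treatment. Krt80 lies at 2.35 in CTRL and at 0.761 in PIO, a description only, since Krt80 was noticed in these groups at 6 h.

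The makeup of the keratin pool changed between the times. The CPM of the 9 genes summed to 251 to 666 at 6 h and 123 to 244 at 24 h. Krt8 and Krt18 together made up 82.0% to 89.7% of the sum at 6 h and 74.5% to 79.3% at 24 h, with no overlap. Krt19 stood at 0.150 to 0.256 of the Krt8 CPM at 6 h and at 0.395 to 0.508 at 24 h, also with no overlap. The ratio of Krt8 to Krt18 in CPM stayed within 0.777 to 1.35 in all 24 libraries. It was 1.04 to 1.35 in the libraries without pioglitazone at 6 h and 0.881 to 1.08 in those with it, ranges that overlap.

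**Figure D5:**
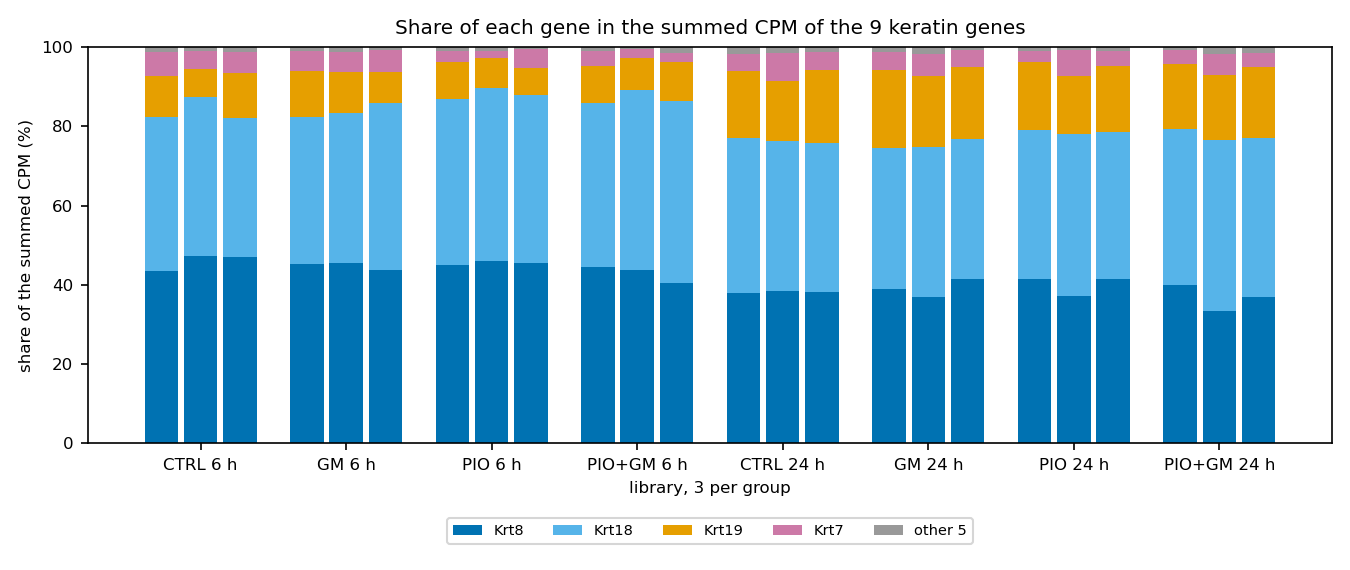
Share of each gene in the summed CPM of the 9 keratin genes (y axis, percent), 1 stacked bar per library, 3 libraries per group. The 5 genes Krt5, Krt14, Krt15, Krt17 and Krt80 are drawn together. The Krt19 share is 6.81% to 11.6% at 6 h and 14.9% to 19.8% at 24 h.

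Over the 24 libraries, Krt8 and Krt18 had a Pearson r of 0.98 in log2 CPM, and of 0.89 within groups, and each was the gene most like the other among all tested genes. The libraries share treatment, time and depth, so these values are a description. The gene most like Krt7 was Ccnd1 (r = 0.95), most like Krt19 was Plp2 (0.93), most like Krt17 was Ptchd1 (0.91), most like Krt80 was Tfap4 (0.86) and most like Krt15 was Ddah1 (0.85). The genes outside the list most like the mean of the keratins were Ccnd1 (0.93), Tinagl1 (0.92) and Igfbp3 (0.91).

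Other genes of the keratin cytoskeleton were counted from lists drawn up with earlier results of these data known. In the hemidesmosome and basement membrane list, which joins keratin filaments to the matrix, 10 of 11 genes were tested and 7 were lower with pioglitazone averaged at 6 h, none higher, with a median of -0.49 against -0.02 for all genes. Of all tested genes 6.83% were lower in this contrast, which ran against GC content with a rho of -0.56, and the part of GC content in the count was not tested. Plec, the plectin that links filaments to integrin, was at -1.01 (SE 0.31, adjusted p = 0.0321). Itgb4, the hemidesmosomal integrin subunit, was at -0.96 (SE 0.21, adjusted p = 0.00800), and Lama5, a laminin chain, at -0.71 (SE 0.21, adjusted p = 0.0301). At 24 h the median was -0.28 and none of the 10 was called, where 2.79% of all tested genes were, and in PIO+GM against GM at 6 h none was called either, where 1.32% of all tested genes were.

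Of 18 desmosome and cell adhesion genes, 2 were lower at 6 h in the averaged contrast, the plakophilin Pkp3 (-0.70, SE 0.20) and the plakoglobin Jup (-0.58, SE 0.17), with a median of -0.26 over the list. At 24 h 1 was lower, the desmosomal cadherin Dsg3 (-2.07, SE 0.52). Of 14 tested regulators of epithelial transcription and splicing, 2 were lower at 6 h, Ehf (-1.06, SE 0.29) and the splicing factor Esrp2 (-0.53, SE 0.17), and none at 24 h. Of 10 tested cornification genes, 2 were lower at 6 h, Sprr1a (-1.26, SE 0.35) and S100a14 (-0.61, SE 0.19), and 2 at 24 h, Krtdap (-2.23, SE 0.48) and S100a14 (-1.21, SE 0.21). Of all tested genes 6.83% were lower at 6 h and 2% at 24 h, and nothing is read from list counts this small. No gene of these 3 lists was called higher with pioglitazone in the averaged contrasts. Of all 16317 tested genes, 1510 were called higher at 6 h and 129 at 24 h. Estimates above 0 were found at 6 h for 7 of 18 desmosome genes, 6 of 14 regulators and 1 of 10 cornification genes. At 24 h these were 3, 0 and 2, in the same order.

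Of 13 intermediate filament genes outside the keratins, 4 were lower with pioglitazone averaged at 6 h, where 6.83% of all tested genes were lower, among them Lmna, which encodes lamins A and C (-1.02, SE 0.19), the mesenchymal filament gene Vim (-0.85, SE 0.15) and Sync (-0.76, SE 0.19). In PIO+GM against GM at 6 h, Lmna (-1.11, SE 0.26, adjusted p = 0.0427) and Vim (-0.88, SE 0.21, adjusted p = 0.0411) were lower, against 0.723% of all tested genes. Both calls were lost with the 12 libraries of the time point and with epithelium scaling, where 0 genes of the table were called. The part of the GC trend of this comparison (rho -0.62) in these values was not tested. At 24 h the averaged contrast called Des, the muscle-type filament gene (-0.86, SE 0.14), and Vim (-0.56, SE 0.15), both lower, against 2% of all tested genes. The mesenchyme markers moved down beside Vim, with a median of -0.28 and 1 of 8 lower in PIO+GM against GM at 6 h and of -0.52 and 3 of 8 lower at 24 h, and their part in the Vim values was not tested. Of the 45 other keratin genes of the table only 6 were tested, and 1 of them, Krt79, was lower at 6 h (-1.95, SE 0.52), from which nothing is read: it reached the filter level in 5 of the 12 libraries at 6 h and 1 at 24 h.

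With time, 62.6% of all tested genes were called, 5008 lower and 5212 higher at 24 h, and the counts of the lists are a description beside that. In all, 8 of the 10 tested cornification genes fell and 1 rose (median -1.63). Sprr1a, a cornified envelope precursor, was at -4.02 (SE 0.31), Ivl, which encodes involucrin, at -3.19 (SE 0.49), and Krtdap at -2.61 (SE 0.32), while Sbsn rose by 0.64 (SE 0.13). Of the 18 desmosome and adhesion genes, 12 fell and 1 rose, with Dsg3 at -3.09 (SE 0.31) and Ppl at -1.71 (SE 0.12). Of the 10 tested hemidesmosome genes 5 fell, led by Itga3 (-1.57, SE 0.11), and of the 14 regulators 6 fell and 1 rose. The medians of the hemidesmosome list (-0.24), the regulators (-0.46) and the desmosome list (-0.52) lie within the shift of 0.55 between scalings, so their direction with time depends on the scaling. Of the other keratins 4 of 6 fell, including Krt16 (-2.38, SE 0.47) and Krt78 (-1.80, SE 0.45), and Krt10 rose (0.38, SE 0.13). Like Krt17, several of these genes passed the filter through the 6 h libraries, in which they are high. Krt16 reached its level in 4 libraries at 6 h and 0 at 24 h, Krt78 in 3 and 0, Ivl in 10 and 1, Sprr1a in 12 and 3 and Dsg3 in 12 and 4, so their falls support nothing. Among the intermediate filament genes 10 of 13 fell, including Nefh (-1.99, SE 0.46) and Des (-1.56, SE 0.10). The neuron markers fell as well, 5 of 6 lower and 1 higher with a median of -1.03, and their part in the Nefh value was not tested.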

How the data were processed

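RNA-seq libraries from 24 pools of OC explants were analysed. The authors aligned single-end reads with STAR to the mm10 genome and counted, with QuasR, reads that start in an exon of each RefSeq gene, and the deposited table holds these raw counts per gene. Whether strand was used and how reads with several matches were handled is not given in the sources used here, so genes that share sequence or overlap are uncertain. The table also gives a gene length, in bases, used for RPKM only.

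Counts were tested in R 4.3.3 with edgeR 4.0.16: filterByExpr (16317 of 24454 genes kept), TMM, and glmQLFit with glmQLFTest on 8 group means of all 24 libraries together. CPM use the TMM-scaled library sizes over the tested genes. Adjusted p-values are Benjamini-Hochberg over all tested genes at 0.05. RefSeq symbols matched 24374 genes, and the GC content and shared 76-base windows come from GENCODE transcripts (GRCm38). The code was tested on simulated counts. The depth of 7211357 to 15548856 counts per library leaves Krt5 and Krt14 near the floor of 3 counts, which covers counting error only.

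All 9 members are described by their levels. A fold change with its test is given for a member past the threshold in a comparison, or for the member with the lowest p where there was none, others being given as values. Of each other list, up to 3 genes in each direction with the largest change are named, except 1 that is not reported here. The members and lists were chosen with earlier results of these data known. Alternatives tried were DESeq2 1.42.0 and its size factors, no TMM, no filter or a minimum of 10 counts, the 12 libraries of a time point alone, a replicate block, removal of the GC trend, another prior count, scaling to the general epithelium markers, and leaving out each library.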

Additional observations from a re-analysis of the deposited data

How the results depend on the processing

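Every keratin fold change followed through the alternatives kept its direction in all alternatives, except that Krt19 with culture time was at 0.20 (adjusted p = 0.0280) when libraries were scaled to the general epithelium markers, an alternative chosen after seeing the data, and that the Krt15 interaction of the drugs at 24 h was between -0.10 and 1.75 when each library was left out. The number of keratins called moved more. For PIO against CTRL at 6 h (2 called, and 55 of all genes) it was 1 with at least 10 counts in every library, with 95 of all genes, since Krt80 was then not tested. The number was 0 with the 12 libraries of the time point or with scaling to epithelium markers, where 0 genes of the whole table were called too. For PIO+GM against GM at 6 h (2 called, and 216 of all genes) it was 1 without the filter, with 75 of all genes. With the GC trend removed it was 0, with 125 of all genes. With the 12 libraries of the time point or with epithelium scaling it was 0, and so was the number over all genes. For PIO+GM against GM at 24 h (0 called, and 18 of all genes) DESeq2 gave 1, and 102 of all genes. For pioglitazone averaged at 6 h (6 called, a description, and 2625 of all genes) it was 4 with the 12 libraries of the time point and with the GC trend removed, with 143 and 1729 of all genes. With at least 10 counts in every library it was 4 of the 4 members still tested, with 2850 of all genes. For pioglitazone averaged at 24 h (1 called, and 456 of all genes) the 12 libraries gave 2, DESeq2 gave 2 and epithelium scaling 0, with 1373, 970 and 461 of all genes. The cause of the other shifts was not tested. Leaving out each library gave 1 to 3 keratins for PIO against CTRL at 6 h (3 without the third PIO library), 0 to 4 for PIO+GM against GM at 6 h (0 without the first GM or the third PIO+GM library, 4 without the first PIO+GM library), 5 to 6 for pioglitazone averaged at 6 h, 1 to 2 at 24 h (2 without the second PIO+GM library) and 5 to 6 for time. Over all genes, PIO+GM against GM at 6 h called 4 to 4053 genes in these refits, against 216. PIO against CTRL at 6 h called 6 to 120 genes, against 55, with 120 without the third PIO library. Pioglitazone averaged called 1141 to 5086 genes at 6 h, against 2625, and 182 to 385 at 24 h, against 456. Time called 9857 to 10610 genes, against 10220. With a prior count of 0.5 in place of 2, 5 mean log2 levels of Krt15, Krt17 and Krt80 moved by more than the spread between libraries. Krt5 and Krt14 were tested only without the filter, where both were called lower with time on 0 to 8 counts per library. Thus 7 keratins were then called for time against 5, and 11543 of all genes against 10220.

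The labels do not say that a replicate number marks a shared animal, litter or batch, and not every pair deviated together, so the libraries were taken to share only a number. Same-numbered libraries deviated together by more than a correlation of 0.1 in 9 of 18 pairs at 6 h and 15 of 18 at 24 h (mean 0.11 and 0.38), and 8 of 12 and 11 of 12 libraries correlated best with their own number, a hint from the data and not the design. With the replicate number as a block, 4 keratins were called for PIO against CTRL at 6 h, 6 for PIO+GM against GM at 6 h, 1 for PIO+GM against GM at 24 h and 4 for pioglitazone averaged at 24 h. With the block and the GC trend removed, PIO+GM against GM at 6 h gave 1 and pioglitazone averaged at 24 h gave 4. The calls over all genes rose too. The block called 371 genes for PIO against CTRL at 6 h, against 55, 1990 for PIO+GM against GM at 6 h, against 216, 98 for PIO+GM against GM at 24 h, against 18, and 1191 for pioglitazone averaged at 24 h, against 456. With the GC trend removed as well, these were 735 for PIO+GM against GM at 6 h and 2174 for pioglitazone averaged at 24 h.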
